A study of Rattus norvegicus with 9 samples.

Results

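The complement genes described here encode components and regulators of the complement system other than the C1q chains: C3, C1s, C1r, C2, C4a, Cfb, Cfi, Serping1 and Cd55. They were taken by symbol from the authors' table of normalised expression, in which each gene has one row with its FPKM (fragments mapped to the gene, scaled to its transcript length and to the library size) in every library. A row was found for 7 of the 9 genes among 11235 rows, and all 7 had enough reads to enter the test over 17335 genes. C3 and C2 had no row under their symbols and were not analysed here. The row named Cfb carried the orthology entries of both C2 and factor B and spanned 18902 bases, against 5868 bases for Cfb in RefSeq, so it may hold reads of both genes and is called the Cfb row below.

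The libraries came from wild-type Sprague-Dawley rat kidney and fell into 3 groups of 3. Sham rats had surgery without ischaemia. I/R rats had 45 min of renal ischaemia by clamping of the left renal artery, followed by reperfusion, and I/R + rapamycin rats had the same injury and rapamycin, an inhibitor of the kinase mTOR. For sex, route, dose and time the labels differ: the series text names males given 1 mg/kg per day into the peritoneum, while the protocols of the samples name both sexes at 6 to 8 weeks of age, gavage begun 1 day ahead of surgery, doses of 1 or 2 mg/kg per day, and reperfusion lasting 3 or 7 days. The replicates are numbered without a statement that each is a separate rat, so the p-values measure the spread between these libraries, which may be technical.

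Complement is a cascade of plasma and tissue proteases. In the classical pathway C1q recruits the proteases C1r and C1s, and C1s cleaves C4 and C2 to build an enzyme that cleaves C3, while factor B builds the corresponding enzyme of the alternative pathway. Most plasma complement is made by the liver, but kidney tubules, fibroblasts and macrophages also transcribe complement genes, and host cells are protected by inhibitors that act on C1, on C3b and on the C3-cleaving enzymes.

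Library totals ranged from 44582251 to 60538627 counts, and counting noise was small for these genes, whose counts ran from 188 (Cfi) to 15596 (C4a) per library. The labels name renal tubular cells as well as kidney. All 8 listed proximal tubule markers were measured, with a summed level of 9162 to 12688 CPM (read counts scaled to library size, with the TMM method of edgeR), and so were all 9 endothelial markers (691 to 789 CPM) and all 6 podocyte markers (439 to 727 CPM), so markers of other kidney cell types were present. In such bulk samples, fewer cells of a type and less RNA per cell cannot be told apart. The library sham 3 stood apart from the other sham libraries. The summed level of 7 measured macrophage markers of 10 listed was 477 CPM in sham 3 against 258 and 261 CPM in sham 1 and sham 2, that of 8 fibroblast and pericyte markers of 10 was 928 against 625 and 465 CPM, and that of 3 globin transcripts was 2552 against 307 and 245 CPM.

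Per transcript length, the classical pathway genes and the C1 inhibitor were the abundant members. Mean FPKM over the 9 libraries was 37.9 for Serping1, 34.6 for C1r, 22.8 for C1s, 19.9 for C4a, 8.02 for Cd55, 2.35 for Cfi and 1.90 for the Cfb row. Neighbours in this order did not all differ beyond their spread. Serping1 exceeded C1r in 5 of 9 libraries and C1s exceeded C4a in 6 of 9. C1r exceeded C1s in 9 of 9 libraries, C4a exceeded Cd55 in 9 of 9, Cd55 exceeded Cfi in 8 of 9 and Cfi exceeded the Cfb row in 7 of 9.

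**Figure D1:**
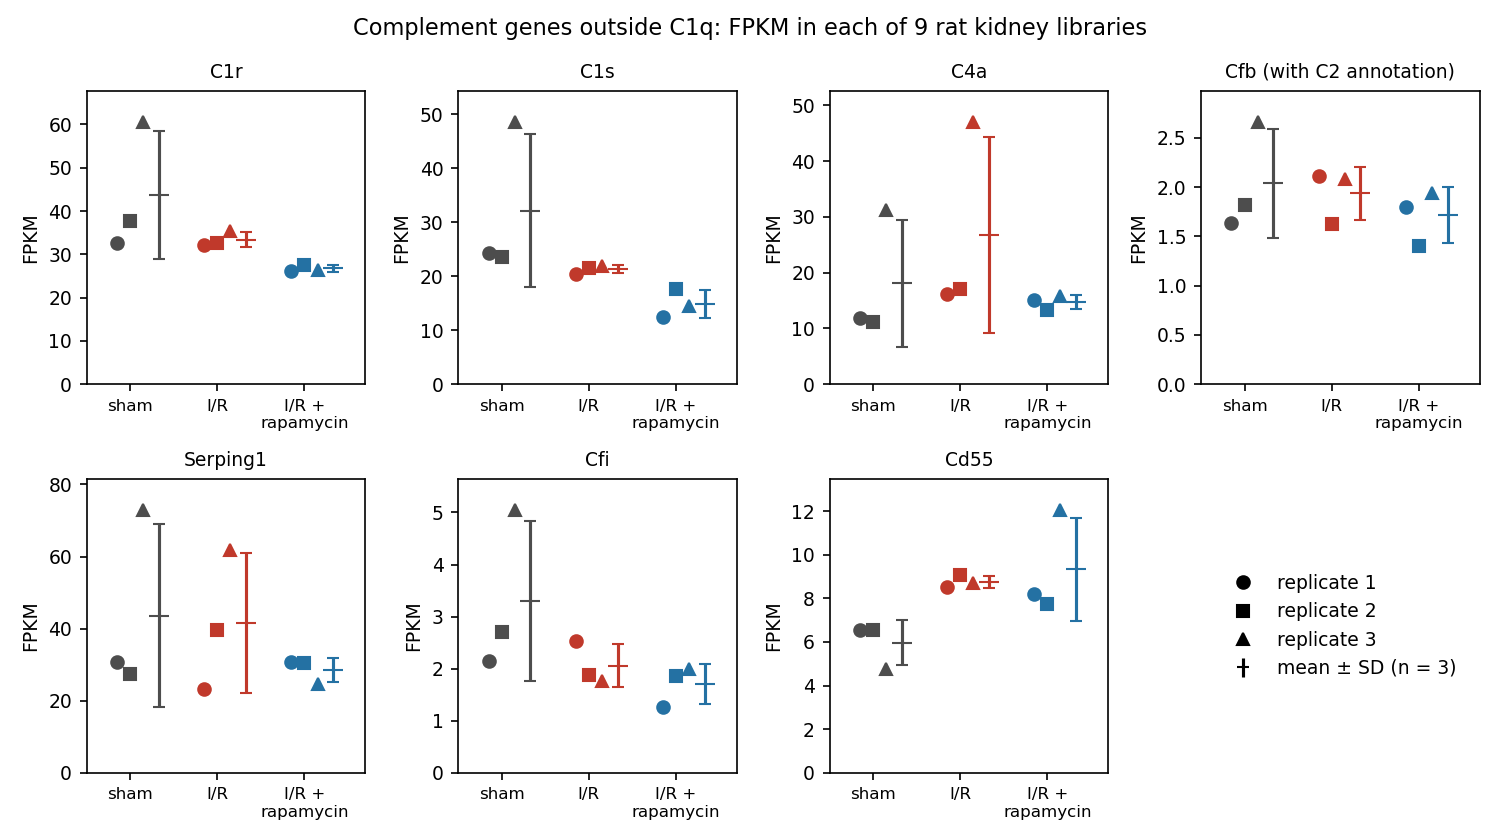
FPKM (vertical axes, each from 0) of the 7 measured complement genes by group (horizontal axes), 1 point per library with the marker giving the replicate number and the group mean ± SD (n = 3) beside the points. Sham 3 is the highest of the 9 libraries for 5 genes, C4a is highest in I/R 3, and Cd55 is lower in the 3 sham libraries than in the other 6.

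C1r encodes the protease that activates C1s within the C1 complex. Its FPKM was 32.7, 37.7 and 60.6 in sham 1, 2 and 3, 32.2, 32.6 and 35.4 in the I/R libraries and 26.2, 27.6 and 26.5 in the I/R + rapamycin libraries. The group means were 43.7 ± 14.9 (SD, n = 3), 33.4 ± 1.78 and 26.7 ± 0.737 FPKM. All 3 rapamycin libraries lay below the other 6, whereas sham and I/R overlapped.

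C1s encodes the protease that cleaves C4 and C2. It stood at 24.4, 23.5 and 48.6 FPKM in sham, 20.4, 21.5 and 21.9 FPKM in I/R and 12.5, 17.7 and 14.5 FPKM with rapamycin, with means of 32.2 ± 14.2, 21.3 ± 0.762 and 14.9 ± 2.60 FPKM (SD, n = 3). For C1s the 3 sham libraries were the highest, the 3 I/R libraries came next and the 3 rapamycin libraries were the lowest, without overlap. Among all tested genes, 4.34% had the 3 rapamycin libraries below the other 6 and 2.11% the 3 sham libraries above the other 6. C1r and C1s lie next to each other on chromosome 4 on opposite strands, with 6632 bases between them in the authors' coordinates, and neither overlaps another listed gene.

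C4a encodes complement C4, whose fragment binds covalently to surfaces. It was at 11.9, 11.2 and 31.2 FPKM in the sham libraries, 16.1, 17.1 and 47.0 FPKM in the I/R libraries and 15.1, 13.4 and 15.8 FPKM with rapamycin. I/R 3 and sham 3 were the high libraries. The 3 rapamycin libraries lay just below the I/R libraries in FPKM, at up to 15.8 against 16.1, but overlapped with them in TMM-scaled counts, and sham overlapped with both groups. C4a has a near-identical neighbour, C4b, which had no row under its symbol, and the authors' counting could have split or shared their reads, so the C4a level is uncertain.

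The Cfb row, which stands for factor B and may include C2, was at 1.63, 1.82 and 2.66 FPKM in sham, 2.11, 1.63 and 2.08 FPKM in I/R and 1.80, 1.40 and 1.94 FPKM with rapamycin. Its 3 groups overlapped, and its highest and lowest libraries differed 1.90-fold, the narrowest range of the 7 genes.

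Among the regulators, Serping1 encodes the C1 inhibitor, a serpin that inactivates C1r, C1s and proteases of the kinin pathway. Its FPKM was 30.6, 27.4 and 72.8 in sham, 23.3, 39.7 and 61.9 in I/R and 30.7, 30.4 and 24.6 with rapamycin. As for C4a, sham 3 and I/R 3 were the high libraries and the 3 groups overlapped.

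Cfi encodes factor I, the protease that degrades C3b and C4b with the help of cofactors. It was at 2.15, 2.71 and 5.04 FPKM in sham, 2.52, 1.87 and 1.76 FPKM in I/R and 1.26, 1.85 and 2.00 FPKM with rapamycin. Rapamycin and sham libraries did not overlap, and the I/R libraries overlapped with both.

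Cd55 encodes decay-accelerating factor, a membrane protein that dismantles the C3-cleaving enzymes on host cells. It was at 6.55, 6.57 and 4.76 FPKM in sham, 8.51, 9.08 and 8.69 FPKM in I/R and 8.22, 7.73 and 12.0 FPKM with rapamycin, with means of 5.96 ± 1.04, 8.76 ± 0.290 and 9.33 ± 2.36 FPKM (SD, n = 3). The 3 sham libraries lay below the other 6, a placing found in 2.29% of all tested genes, and sham 3 was the lowest of the 9 libraries.

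The stretches before the start sites of C1r, C4a and Cd55 are shown because these genes had different patterns over the libraries: C1r was lowest with rapamycin, C4a was high in 2 single libraries and Cd55 was lowest in sham. RefSeq windows of assembly GRCr8 matched 4 of the 7 measured members (C1r, C4a, Cd55 and Cfi), and the 250 bases before each start were searched on both strands. None of the 4 windows held TTCNNNGAA (a STAT motif, in 7.67% of 33465 windows), the interferon-stimulated element (3.41%), the NF-kB motif (6.33%) or CCAAT (34.0%). Motifs added after the windows were seen were TATAAA (12.9% of windows, none of the 4), GGGCGG (a GC box, 30.5%), CACGTG (an E box, 5.59%) and ATGCAAAT (an octamer, 1.56%), and their matches are in capitals, written 5′ to 3′ on the gene's strand. The C1r window (chr4:159098763-159099012, plus strand) held the octamer 81 to 74 bases before the start, the C4a window (chr20:4010107-4010356, plus strand) held the E box 90 to 85 bases before it, and the Cd55 window (chr13:44438102-44438351, minus strand) held 3 GC boxes, 2 of them overlapping, the nearest ending 18 bases before it. The Cfi window held none of the motifs searched. These are matches of letters and no evidence of binding.
C1r: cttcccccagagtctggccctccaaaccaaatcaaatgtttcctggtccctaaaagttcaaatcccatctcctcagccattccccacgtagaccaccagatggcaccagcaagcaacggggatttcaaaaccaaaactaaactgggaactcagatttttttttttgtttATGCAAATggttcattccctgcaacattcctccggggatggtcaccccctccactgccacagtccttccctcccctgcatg
C4a: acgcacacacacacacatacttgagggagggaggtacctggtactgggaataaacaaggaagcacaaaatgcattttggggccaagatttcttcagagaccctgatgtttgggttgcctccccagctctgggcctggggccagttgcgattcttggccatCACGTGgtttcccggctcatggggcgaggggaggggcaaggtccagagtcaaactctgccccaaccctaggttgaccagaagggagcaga
Cd55: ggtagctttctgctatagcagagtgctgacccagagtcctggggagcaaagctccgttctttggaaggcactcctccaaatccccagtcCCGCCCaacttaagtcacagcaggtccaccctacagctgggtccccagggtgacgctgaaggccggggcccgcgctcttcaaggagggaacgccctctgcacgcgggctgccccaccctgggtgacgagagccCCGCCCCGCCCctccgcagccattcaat

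Injury alone was addressed by setting I/R against sham. C1s averaged 76.9 ± 4.82 CPM after I/R and 118 ± 52.5 CPM in sham kidneys (SD, n = 3), and Cfi 6.64 ± 1.19 and 10.9 ± 5.10 CPM. Cd55 averaged 36.9 ± 2.68 CPM after I/R and 25.4 ± 4.49 CPM in sham kidneys. On the log2 scale the fold changes were -0.62 for C1s (SE 0.27), -0.41 for C1r (SE 0.19), -0.72 for Cfi (SE 0.31) and 0.54 for Cd55 (SE 0.17). C4a was at 0.53 (SE 0.55), Serping1 at -0.09 (SE 0.47) and the Cfb row at -0.10 (SE 0.20). At an adjusted p of 0.05 (edgeR quasi-likelihood, Benjamini-Hochberg over all genes), 0 of the 7 passed, where 0.0577% of all genes tested did. DESeq2 called 0 of the 7 and 1.31% of all genes it adjusted. At an unadjusted p under 0.05 stood 2 of the 7, Cd55 (adjusted p = 0.361 by edgeR) and Cfi (adjusted p = 0.509 by edgeR), against 9.42% of all genes. In TMM-scaled CPM, groups did not overlap for 2 of the 7, Cd55 and C1s, against 14.6% of all genes. The median log2 fold change of the 7 was -0.10, and that of all genes tested 0.00. The 6 podocyte markers summed to 480 to 655 CPM in I/R against 709 to 727 CPM in sham, and the 7 collecting duct markers to 754 to 815 against 873 to 906 CPM, both without overlap. Their part in the complement values was not tested. Of the injured tubule markers, Havcr1, Sox9 and Krt20 had no row under their symbols. The 7 measured ones summed to 485 to 967 CPM in I/R and 377 to 570 CPM in sham, with overlap. Neither edgeR nor DESeq2 called any of these markers, and their median log2 fold change was -0.09. By edgeR 1 of them, higher in I/R, had an unadjusted p under 0.05. How strongly these kidneys were injured was not tested.

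In I/R against sham, the differences of C1r, C1s and Cfi depended on sham 3. Without this library the I/R against sham log2 fold changes were -0.10 for C1r (SE 0.11), -0.19 for C1s (SE 0.13) and -0.27 for Cfi (SE 0.24). Serping1 moved to 0.51 (SE 0.38) and C4a to 1.19 (SE 0.48, adjusted p = 0.48 by edgeR, range over alternatives 0.237 to 0.996). C4a was at -0.14 without I/R 3. Cd55 stayed at 0.40 (SE 0.16) without sham 3, and its lowest and highest values over the single libraries left out were 0.40 and 0.64.

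**Figure D2:**
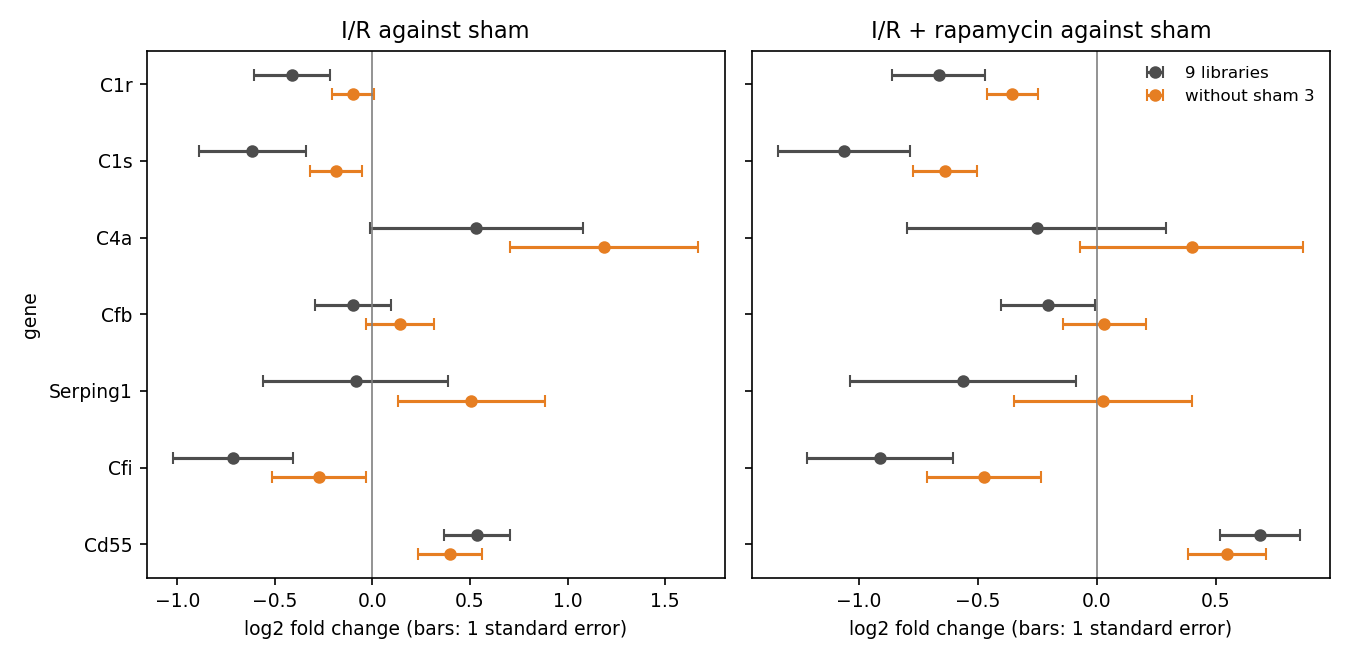
Log2 fold changes (horizontal axes) with 1 standard error for the 7 genes in I/R against sham and I/R + rapamycin against sham, fitted by edgeR on all 9 libraries and without sham 3. C1r, C1s and Cfi move towards 0 without sham 3, Serping1 and the Cfb row change sign in both panels, and Cd55 stays above 0.

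Of all tested genes, 13.2% were highest in sham 3 among the 9 libraries. Of the 7 complement genes, 5 were: C1r, C1s, the Cfb row, Cfi and Serping1. Relative to the mean of sham 1 and sham 2, sham 3 was 2.72-fold for C4a, 2.52-fold for Serping1, 2.07-fold for Cfi, 2.04-fold for C1s, 1.72-fold for C1r, 1.54-fold for the Cfb row and 0.728-fold for Cd55. The same ratio was 1.84 for the summed macrophage markers, 1.70 for the fibroblast and pericyte markers, 1.26 for the proximal tubule markers, 0.966 for the endothelial markers, 3.15 for 10 immediate early and heat shock genes and 9.25 for the globins, and the part of these in the complement values was not tested. Of the defining neutrophil markers 0 of 6 had a row under its symbol.

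I/R 3 was high for a smaller set. It was 2.76-fold for C4a and 1.91-fold for Serping1 relative to the mean of I/R 1 and I/R 2, and 1.02-fold for C1s, 1.07-fold for C1r and 0.787-fold for Cfi. The summed macrophage and fibroblast markers of I/R 3 were 1.09-fold and 1.05-fold of the same mean. The sum of 7 measured markers of injured tubule of 10 listed, of which Spp1 was the most abundant, was 1.97-fold. The complement regulator Clu is among these 7 but was itself 0.649-fold. The same ratio was 1.74 for the immediate early and heat shock genes and 1.45 for the globins. The injured tubule sum was 967 CPM in I/R 3 and 930 CPM in rapamycin 1, where C4a was at 15.1 FPKM and Serping1 at 30.7 FPKM. The part of these markers in the C4a and Serping1 values was not tested.

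Among injured kidneys, those given rapamycin were set against those without it. C1r averaged 85.4 ± 3.84 CPM with rapamycin and 102 ± 5.89 CPM in I/R, and C1s 56.4 ± 10.4 and 76.9 ± 4.82 CPM (SD, n = 3). The log2 fold changes were -0.25 for C1r (SE 0.20), -0.45 for C1s (SE 0.27), -0.78 for C4a (SE 0.55), -0.48 for Serping1 (SE 0.47), -0.20 for Cfi (SE 0.31), -0.11 for the Cfb row (SE 0.20) and 0.15 for Cd55 (SE 0.17). None of the 7 passed the edgeR test or DESeq2, and 0 of the 7 had an unadjusted p under 0.05. Over all genes 0.127% passed by edgeR, 5.24% passed by DESeq2 and 16.3% had an unadjusted p under 0.05. Groups did not overlap for C1r and C1s, 2 of the 7, both lower with rapamycin, against 24.6% of all genes in either direction and 12.8% lower. Their median log2 fold change was -0.25, and that of all genes 0.01. The C4a difference was -0.12 without I/R 3 and the Serping1 difference -0.10.

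The fit shares one spread over all 9 libraries, so the wide sham values also enter this comparison. The edgeR fit of the 6 I/R and rapamycin libraries alone gave C1s an adjusted p of 0.171 (SE 0.13) and C1r an adjusted p of 0.186 (SE 0.080), with both under 0.05 before adjustment, and called 0 of the 7 and 6 genes in all. The edgeR fit without sham 3 called 0 of the 7 and 44 genes in all. DESeq2 gave C1s an adjusted p of 0.289 on all 9 libraries. DESeq2 without sham 3, run after the values were seen, called 1 of the 7 and 5.41% of all genes it adjusted. The 1 was C1s, with a log2 fold change of -0.45 (SE 0.14) and an adjusted p of 0.0339 (range over alternatives 0.0339 to 0.774).

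The summed globin transcripts were at 1242 to 3332 CPM in I/R and 84.8 to 524 CPM with rapamycin, without overlap, and at 245 to 2552 CPM in sham. The 10 immediate early and heat shock genes summed to 513 to 2099 CPM in I/R, 511 to 592 CPM with rapamycin, with overlap, and 762 to 3709 CPM in sham. Their part in the complement values was not tested.

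**Figure D3:**
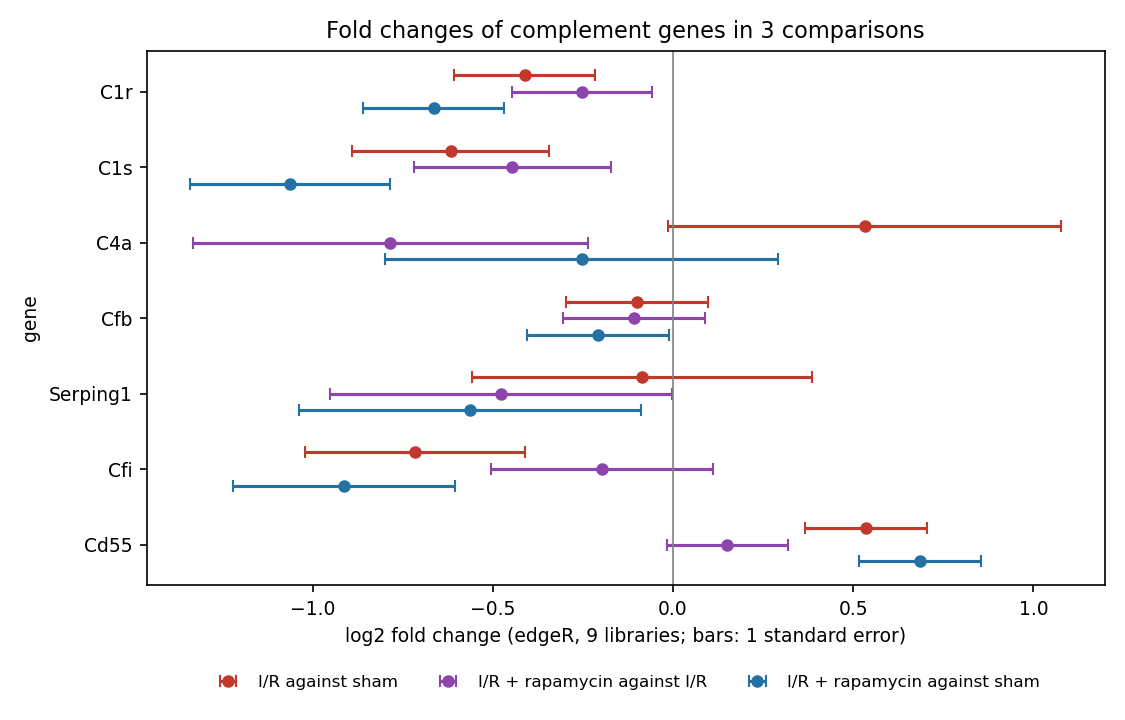
Log2 fold changes (horizontal axis) of the 7 genes in I/R against sham, I/R + rapamycin against I/R and I/R + rapamycin against sham, with bars of 1 standard error from edgeR over 9 libraries. C1r, C1s, Cfi, Serping1 and the Cfb row lie below 0 and Cd55 above 0 in the 3 comparisons, which share libraries.

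The distance of rapamycin-treated kidneys from uninjured ones was the largest of the 3 comparisons for every measured member except C4a. Its log2 fold change is the sum of those of the other comparisons, so it is the largest wherever they share a sign. The log2 fold changes were -1.06 for C1s (SE 0.28), -0.66 for C1r (SE 0.20), -0.91 for Cfi (SE 0.31) and 0.69 for Cd55 (SE 0.17). Serping1 was at -0.56 (SE 0.47), C4a at -0.25 (SE 0.55) and the Cfb row at -0.21 (SE 0.20). By edgeR with Benjamini-Hochberg adjustment 0 of the 7 passed, where 0.156% of all genes did, with adjusted p of 0.181 for C1s, 0.199 for C1r, 0.241 for Cfi and 0.143 for Cd55. At an unadjusted p under 0.05 stood these 4 of 7, against 13.8% of all genes, and the same 4 had groups that did not overlap, against 19.3%. The median log2 fold change was -0.56 for the 7 genes and 0.00 for all genes.

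DESeq2 called 3 of the 7 in this comparison, where it called 3.27% of the genes it adjusted. C1s was lower (adjusted p = 0.00193, range over alternatives 0.00193 to 0.491), C1r was lower (adjusted p = 0.0283, range 0.0283 to 0.505) and Cd55 was higher (adjusted p = 0.0137, range 0.0137 to 0.319). Without sham 3 DESeq2 called C1s alone (log2 fold change -0.64, adjusted p = 0.00566), 1 of the 7, against 2% of all genes it adjusted. By edgeR without sham 3, C1s was at -0.64 (SE 0.13), C1r at -0.36 (SE 0.11), Cfi at -0.47 (SE 0.24) and Cd55 at 0.55 (SE 0.17), and none passed. The signs of C4a, Serping1 and the Cfb row turned without sham 3, to 0.40 (SE 0.47), 0.03 (SE 0.37) and 0.03 (SE 0.17). Rapamycin libraries had summed macrophage markers of 325 to 383 CPM and fibroblast and pericyte markers of 663 to 735 CPM, both above sham 1 and sham 2 (258 and 261 CPM, 625 and 465 CPM) and below sham 3 (477 and 928 CPM). Podocyte markers, given above, were also lower than in sham, at 439 to 612 CPM with rapamycin, and their part in these differences was not tested.

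The other complement genes gave a wider view of the pathway. Of 41 listed, 16 were measured and none passed the edgeR test or DESeq2 in any of the 3 comparisons. By edgeR, 2, 0 and 2 of the 16 had an unadjusted p under 0.05 in I/R against sham, I/R + rapamycin against I/R and I/R + rapamycin against sham, against 9.42%, 16.3% and 13.8% of all genes, and their median log2 fold changes were -0.04, -0.01 and -0.06. DESeq2 called 1.31%, 5.24% and 3.27% of all genes in these comparisons. The C1q chains, the recognition part of C1 made by macrophages, were at -0.13 (C1qa, SE 0.18), -0.09 (C1qb, SE 0.17) and 0.00 (C1qc, SE 0.16) in I/R against sham and at 0.08, -0.02 and 0.13 with rapamycin against sham. The host-cell inhibitors Cd59, which blocks the membrane attack complex, and Cd46, a cofactor for factor I, were at -0.07 (SE 0.097) and -0.27 (SE 0.091, adjusted p = 0.234 by edgeR) with rapamycin against sham. The 3 sham libraries lay above the other 6 for Cd46, by a narrow margin (sham 1 was at 83.5 CPM, I/R 2 at 83.4 CPM), and below them for Cd55. The difference between the 2 genes was not tested.

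The receptor gene Cd93 was at 0.48 in I/R against sham (SE 0.19, adjusted p = 0.484 by edgeR), and Itgb2, the shared chain of the complement receptors CR3 and CR4, was at 0.09 (SE 0.26). C7, a membrane attack component, was the most abundant of the 16 in CPM, and 4.54-fold higher in sham 3 (2359 CPM) than the mean of sham 1 (489 CPM) and sham 2 (550 CPM). The other 8 libraries ranged from 323 to 641 CPM.

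**Figure D4:**
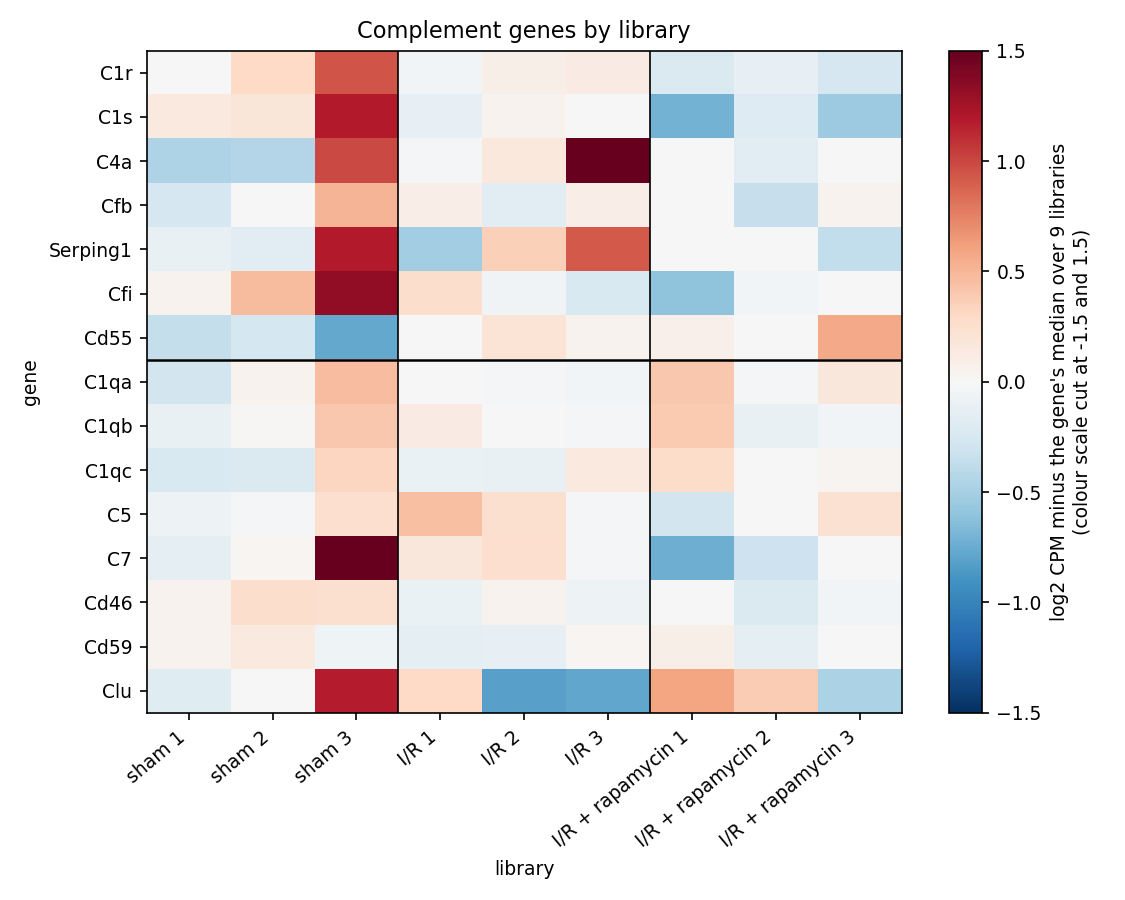
Log2 CPM of complement genes (rows, the 7 measured members above the line and a selection of the other measured genes below it) in 9 libraries (columns), relative to each gene's median over the libraries, with red above and blue below that median. Sham 3 is red for C1r, C1s, C4a, Serping1, Cfi, C7 and Clu and blue for Cd55. It is paler red for the Cfb row, C1qa, C1qb, C1qc, C5 and Cd46. I/R 3 is red for C4a and Serping1.

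Genes of the signals that induce complement transcription, IL-6, interferon gamma and NF-kB, were measured for 17 of 22 listed, and none passed the edgeR test. An unadjusted p under 0.05 was found for 0 of them in I/R against sham, 1 with rapamycin against I/R and 4 with rapamycin against sham (9.42%, 16.3% and 13.8% of all genes), and DESeq2 called 0, 0 and 1 (1.31%, 5.24% and 3.27% of all genes). In I/R against sham the smallest p belonged to Ifngr1, Nfkb2, Socs3 and Tnfrsf1a (adjusted p from 0.709 to 0.716 by edgeR). With rapamycin against I/R the 4 smallest belonged to Jak2, at -0.47 (SE 0.20, adjusted p = 0.29 by edgeR), Cebpd at -0.45 (SE 0.21), Nfkbia at -0.36 (SE 0.17) and Stat3 at -0.23 (SE 0.12). With rapamycin against sham Cebpd, an acute-phase transcription factor gene, was at -0.68 (SE 0.21, adjusted p = 0.211 by edgeR, DESeq2 adjusted p = 0.0453). In that comparison Il6st, the shared receptor of IL-6 family cytokines, was at -0.60 (SE 0.20), Ifngr1 at 0.28 (SE 0.11) and Nfkbia at -0.40 (SE 0.17). Sham 3 was high for Il6st, at 329 CPM against 193 and 183 CPM in sham 1 and sham 2. For Socs3 it was at 36.2 CPM against 4.02 and 8.30 CPM. Fits of the signal genes without sham 3 are not given here.

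The C1 inhibitor also restrains the kinin pathway, of which 6 of 12 listed genes were measured. The listed protease genes F12 (factor XII) and Klkb1 (plasma kallikrein) had no row under their symbols. Whether the C1 inhibitor acts on the products of the 6 measured genes was not tested. None of the 6 passed the edgeR test. In the 3 comparisons in the same order, 2, 0 and 3 had an unadjusted p under 0.05, against 9.42%, 16.3% and 13.8% of all genes. DESeq2 called 1, 0 and 1, against 1.31%, 5.24% and 3.27% of all genes. Cpn1, a carboxypeptidase that inactivates kinins and the complement fragments C3a and C5a, was at 0.40 in I/R against sham (SE 0.10, adjusted p = 0.276 by edgeR, DESeq2 adjusted p = 0.0476) and at 0.52 with rapamycin against sham (SE 0.10, adjusted p = 0.0935 by edgeR, DESeq2 adjusted p = 0.00128). Its 3 sham libraries, at 19.4, 23.0 and 20.1 CPM, lay below the 6 others, at 26.8 to 32.5 CPM. This placing was found in 2.29% of all tested genes. The tissue kallikrein gene Klk1, which releases kinins, was at -0.54 in I/R against sham (SE 0.17, adjusted p = 0.352 by edgeR) and -0.52 with rapamycin against sham (SE 0.17, adjusted p = 0.226 by edgeR). In I/R against sham the next smallest p belonged to Xpnpep2 at 0.41 (SE 0.19) and Ace at 0.63 (SE 0.34). With rapamycin the values were -0.25 for Cpm (SE 0.091) and 0.50 for Kng2 (SE 0.27) against sham, and -0.14 for Cpm (SE 0.091), 0.12 for Cpn1 (SE 0.10), 0.29 for Kng2 (SE 0.27) and -0.31 for Ace (SE 0.34) against I/R.

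Across the 9 libraries the members formed no single pattern. Pearson's r of log2(CPM + 1) was 0.959 between C1r and C1s, 0.887 between C1r and Cfi, 0.895 between C1s and Cfi and 0.838 between C4a and Serping1, and it was 0.187 between C4a and Cfi. Cd55 was at -0.840 with C1s, -0.816 with C1r and -0.723 with Cfi. Among 10716 other genes with a symbol and a mean of at least 1 CPM, those most like C1r were Potef (0.966), Spry1 (0.965) and C1s (0.959), and genes like Serping1 were Ipo4 (0.950) and Lmf2 (0.943). These values describe 9 libraries that share the groups and the high sham 3 library, and carry no test.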

How the data were processed

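Poly(A) RNA of 9 rat kidney samples was sequenced as paired-end libraries, all given batch 1, per the labels' protocols. Per the submitters' processing notes, the tools were HISAT2, StringTie, cutadapt and DESeq2, and the build was Rnor_6.0. Their versions, the annotation, how reads were counted and whether strand was used were not given in the sources used here. With strand unknown, reads of overlapping or antisense genes are not separable. The authors deposited raw read counts for 30454 gene IDs, and a table of FPKM (named in the file headers) with 11235 genes, each of which reached 1 FPKM in 8 or 9 libraries. Genes under that level in 2 or more libraries therefore have no symbol here, and no coordinates are printed from the file, since the build they belong to is not settled.

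Counts were fitted in R 4.3.3 with edgeR 4.0.16 (TMM, default filter on low counts, robust quasi-likelihood tests, all 9 libraries in one fit without covariates), and Benjamini-Hochberg adjusted p under 0.05 was called, over 17335 genes. The SE of a log2 fold change was taken as its absolute value over the root of its F statistic. CPM values are TMM-scaled. Alternatives were DESeq2 1.42.0, its size factors in edgeR, no filter, fits of 6 libraries, the replicate number as a block, libraries left out, and limma 3.58.1 on log2(FPKM + 1) and log2(FPKM + 0.1). Libraries of a group differed well beyond counting noise (chi-square of counts per degree of freedom 33.7 to 133), so none was a copy.

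The members and gene lists were chosen with earlier results of these data known. Genes named outside the members were those of a rule: other complement genes with an unadjusted p under 0.05, receptors, C1q chains and host-cell inhibitors, up to 4 genes of the signal and kinin lists with the smallest p per comparison, and the 3 genes most like the most abundant component and inhibitor. Some results under this rule are not reported here. C7 levels, DESeq2 without sham 3, the fit without I/R 3 and sham 3, and 4 of the promoter motifs were chosen after the values were seen.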

Additional observations from a re-analysis of the deposited data

How the results depend on the processing

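Over 19 alternatives the number of the 7 complement genes called was 0 in I/R against sham, 0 to 3 in I/R + rapamycin against sham and 0 to 1 in I/R + rapamycin against I/R. The exceptions were DESeq2, with 3 called in I/R + rapamycin against sham, and DESeq2 without sham 3, chosen after seeing the data, with 1 called in that comparison and 1 in I/R + rapamycin against I/R. The cause of the difference between the tools was not tested. The other complement genes had 0 called in all 19 alternatives of each comparison. With the replicate number as a block, 0 members were called in each comparison and 1, 1 and 7 genes in all, against 10, 22 and 27 without it. Same-numbered libraries correlated at -0.377 to 0.204 in their deviations from the group means, 2 of 9 pairs were over 0.1, and 3 of 9 libraries were most like one of their own number, so the numbers were not treated as pairs.

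Leaving out single libraries moved the log2 fold changes in I/R against sham from -0.14 to 1.19 for C4a, from -0.25 to 0.14 for the Cfb row and from -0.47 to 0.51 for Serping1. In I/R + rapamycin against I/R the ranges were -0.19 to 0.00788 for the Cfb row (positive without rapamycin 2) and -0.0505 to 0.26 for Cd55 (negative without rapamycin 3). In I/R + rapamycin against sham they were -0.50 to 0.40 for C4a, -0.36 to 0.0312 for the Cfb row and -0.80 to 0.0258 for Serping1. In I/R against sham, leaving out I/R 1 with sham 3, I/R 3 with sham 3, and sham 3 under DESeq2 gave 0.10, 0.10 and 0.14 for the Cfb row and 0.80, 0.12 and 0.50 for Serping1. In I/R + rapamycin against sham these 3 settings gave 0.40, 0.40 and 0.39 for C4a, 0.0311, 0.0310 and 0.0282 for the Cfb row and 0.0256, 0.0254 and 0.0223 for Serping1. The signs of C1r, C1s and Cfi held in the 3 comparisons under all 16 alternatives run for each, and that of Cd55 held in both comparisons with sham. Each group held 3 libraries, which differed well beyond counting noise, and the effect of read depth on the calls was not tested.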
